A study of Callithrix jacchus with 3 samples.

Results

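The small RNAs of 20 to 23 nt described here come from the total small RNA library of the testis of a wild-type common marmoset, a New World monkey, at 41 months of age. They were chosen by length alone: every sequence of 20, 21, 22 or 23 nt in the deposited table, which gives each sequence with its number of reads. There were 201771 such sequences with 1162721 reads, of 2668455 sequences and 14138166 reads of 20 to 51 nt in the whole library. That is 8.22% of its reads (95% interval 8.21% to 8.24%), and 90.5% were of 24 to 33 nt and 1.30% longer. The study also immunoprecipitated MARWI, a marmoset PIWI protein, from testis and sequenced the bound small RNA, but the table of that library starts at 24 nt. Its labels give 2 replicates and ages of 41 and 51 months, so it is not matched in age to the total library. There is 1 total library and no replicate, so no test between samples is given, and the intervals (exact Clopper-Pearson) cover counting error alone, since the reads carry no molecular identifiers. Whole testis holds germ cells, Sertoli cells, interstitial cells, vessels and blood, and the labels name no sorted cell type.

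MicroRNAs (miRNAs) are small RNAs cut from hairpin precursors, first in the nucleus by Drosha and then in the cytoplasm by Dicer, which leaves a duplex of the hairpin's arms with short overhangs at the 3′ ends. One strand of the duplex is loaded into an Argonaute protein and pairs with messenger RNAs mainly through its seed, bases 2 to 8 from the 5′ end, so a start that moves by a single base changes the seed. In the testis miRNAs share the small RNA pool with piRNAs, which are longer, mostly begin with U and are bound by PIWI proteins. No miRNA sequence table was at hand, so reads were named by whether their first 18 nt equal those of 199 listed human miRNAs, a list written with the leading sequences of this library in view.

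The leading sequences of 8 abundant miRNAs are shown first because the identities below rest on them. Capitals mark the seed, T stands for U as in the deposited table, and each is the most abundant sequence of its 5′ end in this library.
miR-34c-5p: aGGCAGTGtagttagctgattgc
miR-449a: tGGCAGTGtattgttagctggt
miR-99a-5p: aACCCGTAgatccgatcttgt
miR-100-5p: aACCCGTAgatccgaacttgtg
miR-21-5p: tAGCTTATcagactgatgttgac
miR-20a-5p: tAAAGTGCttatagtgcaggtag
miR-26a-5p: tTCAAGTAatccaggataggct
miR-9-5p: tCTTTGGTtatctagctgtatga
The seed is the same in miR-34c-5p and miR-449a, which differ in their first base, and the same in miR-99a-5p and miR-100-5p.

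Small RNAs of 20 to 23 nt without a listed start but among the most abundant are shown next, since a large share of the reads belongs to them. They are the leading sequence of each of 5 families, A to E, that were built from sequence likeness alone, and none has a miRNA name here.
Family A: tGCGTCTTacatgcgacactga
Family B: tACTCGCAgccctctagagcgt
Family C: tGAATGTCgcctttttgagaaga
Family D: tTCTCAAGaaggtggcattcatg
Family E: aTTGAAACctctgagagtaga

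Reads peaked at 22 nt. This length held 424155 reads, 36.5% of those of 20 to 23 nt (36.4% to 36.6%), and 23 nt held 338312 reads or 29.1% (29.0% to 29.2%). There were 263928 reads of 21 nt (22.7%) and 136326 of 20 nt (11.7%). Distinct sequences were spread otherwise: their number grew with length, and there were 42657 of 20 nt, 46209 of 21 nt, 52047 of 22 nt and 60858 of 23 nt. The peak at 22 nt was therefore one of reads per sequence, 8.15 there against 3.20 for 20 nt, 5.71 for 21 nt and 5.56 for 23 nt.

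Reads were concentrated on few sequences. The most abundant sequence took 5.05% of 20 to 23 nt reads, the 10 most abundant 15.8% (15.7% to 15.9%), the 100 most abundant 46.2% and the 1000 most abundant 69.0%. In reads of 24 to 33 nt the corresponding shares were 1.36%, 5.85%, 12.7% and between 24.98% and 25.02%. In the 183122 reads of 34 to 51 nt they were 5.20%, 22.7%, 43.8% and 61.5%. At the other end, 159898 of the 20 to 23 nt sequences (79.2%) were read once and together made up 13.8% of reads, close to 14.0% of 24 to 33 nt reads. The 20 to 23 nt range thus held a small set of very abundant sequences and a long tail of rare ones. This was not particular to it: at 34 to 51 nt 78.9% of sequences were read once.

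The 3 leading sequences of each length were forms of listed miRNAs, but for 1 of family A. At 20 nt they were miR-34c-5p with 5370 reads, miR-100-5p with 3664 and miR-143-3p with 3281, and the first made up 3.94% of that length (3.84% to 4.04%). At 21 nt they were miR-99a-5p with 17068 reads (6.47%), miR-449a with 10123 and miR-143-3p with 9851. At 22 nt they were miR-26a-5p with 20195 reads (4.76%), miR-21-5p with 13873 and the leading sequence of family A with 11743. At 23 nt miR-34c-5p stood apart with 58770 reads (17.4%), before miR-20a-5p with 14077 and miR-21-5p with 14001. The 10 most abundant sequences without a listed start came from families A to E, with 3570 to 11743 reads each.

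U was the commonest first base, but less so than in longer reads. It began 63.5% of 20 to 23 nt reads (63.4% to 63.6%) and 82.4% of 24 to 33 nt reads. A came second with 24.03% of 20 to 23 nt reads, against 5.12% of 24 to 33 nt reads. C began 9.18% and G 3.31% of 20 to 23 nt reads, against 4.91% and 7.61% of 24 to 33 nt reads. Over distinct sequences the gap was smaller, with U first in 72.7% of 20 to 23 nt sequences and 75.3% of 24 to 33 nt sequences. The first base differed with abundance, though not in one direction: U began 70.4% of 20 to 23 nt reads from sequences read once, 82.8% from sequences read 2 to 10 times, and 56.8% of reads from sequences read more than 1000 times, where A began 33.2%. For sequences with more than 100 and up to 1000 reads, U began 61.8% of 20 to 23 nt reads and 91.7% of 24 to 33 nt reads, and for those with more than 1000 reads it began 56.8% of 20 to 23 nt reads and 71.3% of 24 to 33 nt reads.

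The last base depended on length more than the first. U ended 32.8% of 20 to 23 nt reads (32.7% to 32.9%) and 27.5% of 24 to 33 nt reads. C ended 20.05% of 20 to 23 nt reads and 33.4% of 24 to 33 nt reads. By length, U ended 42.8% of reads of 22 nt but 17.1% of 23 nt, and C ended 7.61% of reads of 22 nt but 35.9% of 23 nt. The leading sequence of 23 nt, miR-34c-5p, ends with C and is 17.4% of the reads of that length (17.2% to 17.5%).

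**Figure D1:**
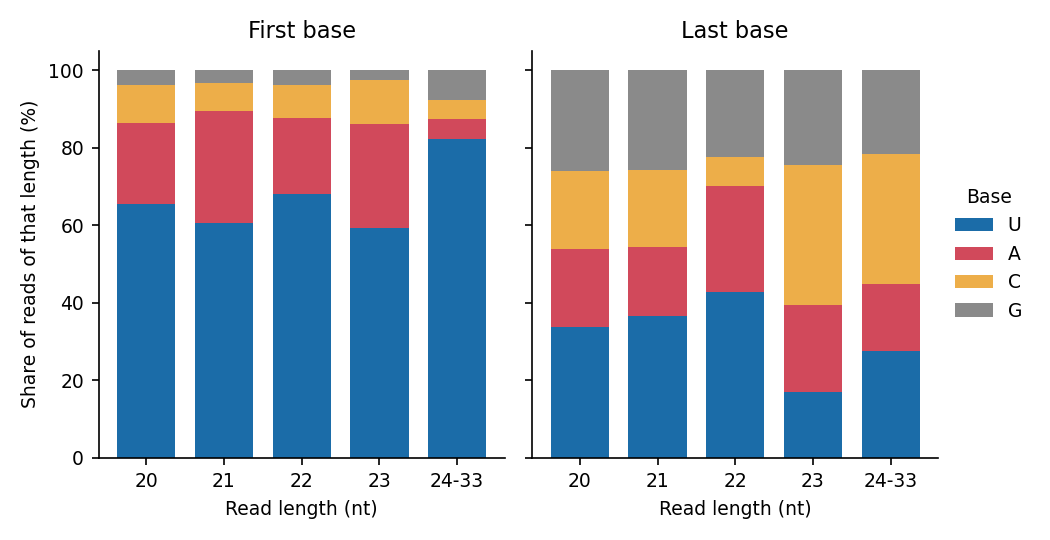
Share of reads by first base (left) and last base (right) at 20, 21, 22 and 23 nt and over 24 to 33 nt, in percent of the reads of that length, 1 library. First-base U lies between 59.3% and 68.1% at the 4 lengths and at 82.4% over 24 to 33 nt, and last-base C is 35.9% at 23 nt against 7.61% at 22 nt.

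Listed miRNAs accounted for 516872 reads, 44.5% of those of 20 to 23 nt (44.4% to 44.5%), from 574 distinct sequences. Of the 199 listed miRNA starts, 145 had reads, 108 had 100 or more, 61 had 1000 or more and 15 had 10000 or more. A further 21274 reads (1.83%) began 1 or 2 bases before or after a listed start. The 5 unlisted families held 172679 reads, 14.9% (14.8% to 14.9%). Listed parts of tRNA, rRNA and Y RNA held 5920 reads, 0.509%. Of the remaining reads, 310217 (26.7%) shared their first 20 nt with a sequence of 26 to 32 nt of the same library, the length of piRNAs, and 135759 (11.7%) did not. The 199 starts are not a full set of known miRNAs, so the reads without a listed start can include further miRNAs.

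These classes had different bases at their ends. U began 55.4% of listed miRNA reads, 69.9% of reads of the unlisted families, 82.8% of other reads that share a start with 26 to 32 nt sequences, and 50.2% of other reads that do not. A began 34.6% of listed miRNA reads and 7.20% of the reads that share a start with longer ones. The classes also differed in how many reads each sequence had: 900 per sequence for listed miRNAs, 583 for the unlisted families, 2.47 for other reads with a longer counterpart and 1.82 for those without. By length, 22 nt was the commonest in listed miRNAs (39.9%) and in the unlisted families (47.2%), and 23 nt in the other reads that share a start with longer ones (31.7%).

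**Figure D2:**
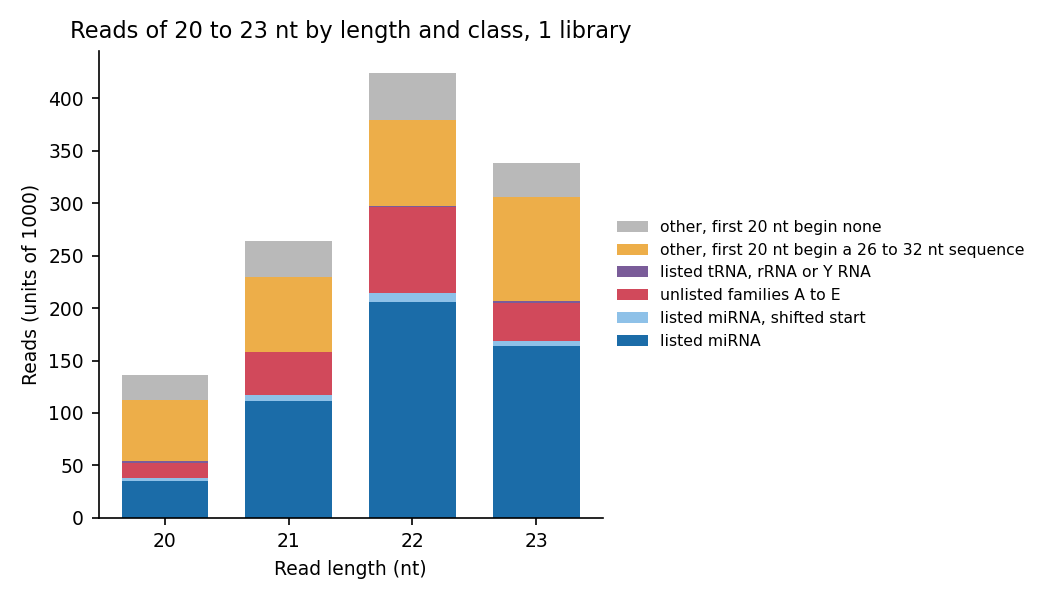
Reads (the axis counts in units of 1000) at each length of 20 to 23 nt, stacked by class, 1 library. Listed miRNAs (dark blue, 44.5% of all) and the unlisted families (red, 14.9%) are highest at 22 nt, and the reads whose first 20 nt begin a 26 to 32 nt sequence (yellow, 26.7%) grow with length.

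The miR-34 and miR-449 family, known from meiotic and later germ cells and from ciliated cells, was the largest group. Its 8 listed starts held 107491 reads, 9.24% of 20 to 23 nt reads and 20.8% of listed miRNA reads, and 6 had 100 or more. miR-34c-5p alone had 83295 reads, 16.1% of listed miRNA reads. miR-449a followed with 22577 reads. The other members were far lower: miR-34c-3p, from the opposite arm of the miR-34c hairpin, had 765 reads, miR-449c-5p 470, miR-34b-3p 176, miR-34b-5p 140 and miR-34a-5p 68 reads. For some of these the listed start and the length limit leave out most reads: miR-449c-5p had 5054 further reads of 24 to 33 nt, 91.5% of its reads of 20 to 33 nt, and shifted starts of 20 to 23 nt had 475 reads for miR-34b-5p and 900 for miR-34b-3p. No read began with the listed start of miR-449b-5p. A count of 0 allows a share of up to 0.000317% by the exact interval, for this and the other starts at 0 below. It says nothing of a form that differs from the human one.

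Outside this family and the lists described below, the leading miRNAs were as follows. miR-21-5p, abundant in most cells, had 34266 reads, 2.95% of 20 to 23 nt reads (2.92% to 2.98%). miR-26a-5p had 22327 reads and miR-191-5p 14968. miR-103a-3p and miR-107, which the first 18 nt do not separate, had 13430 reads together, miR-22-3p had 11947 and miR-199a-5p, known from mesenchymal cells, 8232. The 5 most abundant of the listed miRNAs made up 36.9% of their reads, the 10 most abundant 52.8% and the 20 most abundant 72.8%.

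The family of miR-10, miR-99, miR-100 and miR-125, whose members share hairpin ancestry and sit beside Hox genes or let-7 genes, came second among the lists. Its 7 starts, each with 1000 or more reads, held 80222 reads, 6.90% of 20 to 23 nt reads. miR-99a-5p had 28119 reads, miR-100-5p 18028, miR-125b-5p 12707, miR-10b-5p 8733, miR-99b-5p 5637, miR-125a-5p 5331 and miR-10a-5p 1667. The let-7 family, known for holding back early developmental programmes, held 40212 reads (3.46%), and each of its 8 starts had 100 or more. let-7a-5p and let-7c-5p, which were not separated, had 12192 reads together, let-7f-5p 9626, let-7g-5p 8516, let-7i-5p 4782, let-7b-5p 3080, let-7d-5p 887, miR-98-5p 578 and let-7e-5p 551.

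The miR-17 to 92 clusters, which are tied to cell proliferation, held 39879 reads (3.43%) over 13 starts, 12 of them with 100 or more. Members of the same cluster differed widely. miR-20a-5p had 14831 reads, miR-92a-3p 10451 and miR-17-5p 6108, while miR-19b-3p had 1069, miR-18a-5p with miR-18b-5p 235 and miR-19a-3p 129. From the related clusters, miR-93-5p had 3614 reads, miR-25-3p 2135, miR-106b-5p 652, miR-363-3p 290, miR-92b-3p 159 and miR-20b-5p 117, and miR-106a-5p had 89. Reads compare sequences within this table and not numbers of molecules, since how well each RNA was ligated was not measured.

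Among smaller families, the 6 miR-30 starts held 13093 reads, led by miR-30b-5p with miR-30c-5p at 3615, miR-30a-5p at 3578, miR-30d-5p at 2780 and miR-30e-5p at 1938 reads, with 700 for miR-30e-3p and 482 for miR-30a-3p. The miR-181 family held 4979 reads, 4026 of them miR-181a-5p and 813 miR-181b-5p. The miR-29 family held 4112, with 3562 for miR-29a-3p, 310 for miR-29b-3p and 240 for miR-29c-3p. In each of these families but miR-30 a single member took over 80% of the reads: 80.9% for miR-181a-5p and 86.6% for miR-29a-3p.

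miRNAs that mark other cell types were read at very different levels. The smooth muscle pair held 16710 reads, 15968 of miR-143-3p and 742 of miR-145-5p. The endothelial pair, both arms of the miR-126 hairpin, held 8162, with 7476 of miR-126-3p and 686 of miR-126-5p. The brain list held 20213 reads, but 18464 of them were miR-9-5p, with 945 of miR-128-3p and 801 of miR-9-3p, while miR-124-3p, its most neuron-specific member, had 3. Lists for blood and other organs were near 0: 520 reads for red blood cells (454 of miR-451a), 238 for white blood cells (154 of miR-155-5p), 352 for muscle (337 of miR-1-3p), 38 for the epithelial miR-200 family and 0 for the liver miRNA miR-122-5p. Early embryo miRNAs held 178 reads, 172 of them miR-371a-5p. All these counts are of listed starts at 20 to 23 nt. Shifted starts had 41 further reads for miR-142-5p and 39 for miR-142-3p, both of the white blood cell list. At 24 to 33 nt miR-155-5p had 64 further reads and miR-451a 174. The part of each cell type in the totals was not tested, and fewer cells of a type and less RNA per cell cannot be told apart.

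**Figure D3:**
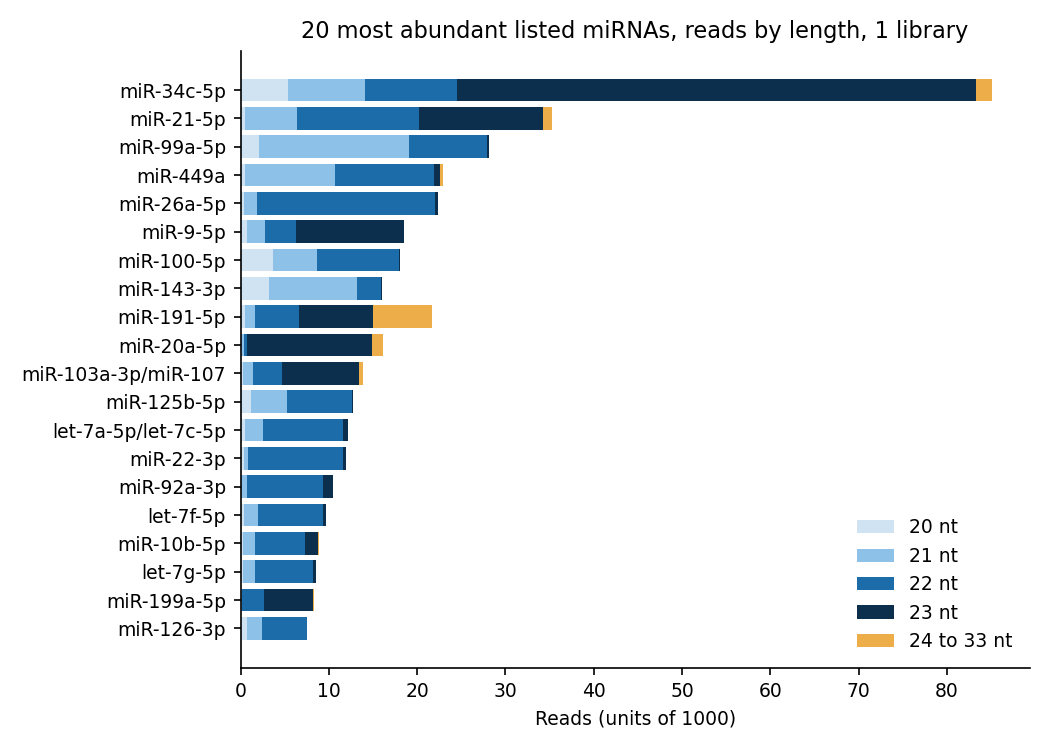
Reads (the axis counts in units of 1000) of the 20 most abundant listed miRNAs, split by read length, 1 library. miR-34c-5p reaches 83295 reads of 20 to 23 nt, 70.6% of them of 23 nt, while miR-191-5p has 6734 further reads of 24 to 33 nt (yellow).

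Each miRNA had its own length. The commonest form was 22 nt in 27 of the 61 miRNAs with 1000 or more reads, 23 nt in 22, 21 nt in 10 and 20 nt in 2. The commonest sequence held between 28.02% and 94.9% of a miRNA's reads, with a median of 61.9%. miR-20a-5p was the most uniform of the 61, with 94.9% of its reads in one sequence of 23 nt, and 90.5% of miR-26a-5p and 90.0% of miR-22-3p reads were of 22 nt. miR-21-5p was split between 22 nt (40.5%) and 23 nt (40.9%), and miR-449a between 21 nt (44.8%) and 22 nt (49.6%). miR-99a-5p and miR-100-5p, which share a seed, differed: 60.7% of miR-99a-5p reads were of 21 nt, and 51.7% of miR-100-5p reads of 22 nt.

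The upper limit of 23 nt leaves out most reads of a few miRNAs. Of all listed miRNA reads of 20 to 33 nt, 7.77% were longer than 23 nt, and the median over the 61 miRNAs was 0.477%. For miR-30e-5p, however, 5770 reads of 24 to 33 nt stood beside 1938 of 20 to 23 nt, so 74.9% lay above the limit, 5730 of them at 24 nt. The share above the limit was 62.7% for miR-7-5p, 56.4% for miR-30a-5p and 31.0% for miR-191-5p. At the lower limit, the table lists nothing under 20 nt, and 6.86% of listed miRNA reads were of 20 nt.

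**Figure D4:**
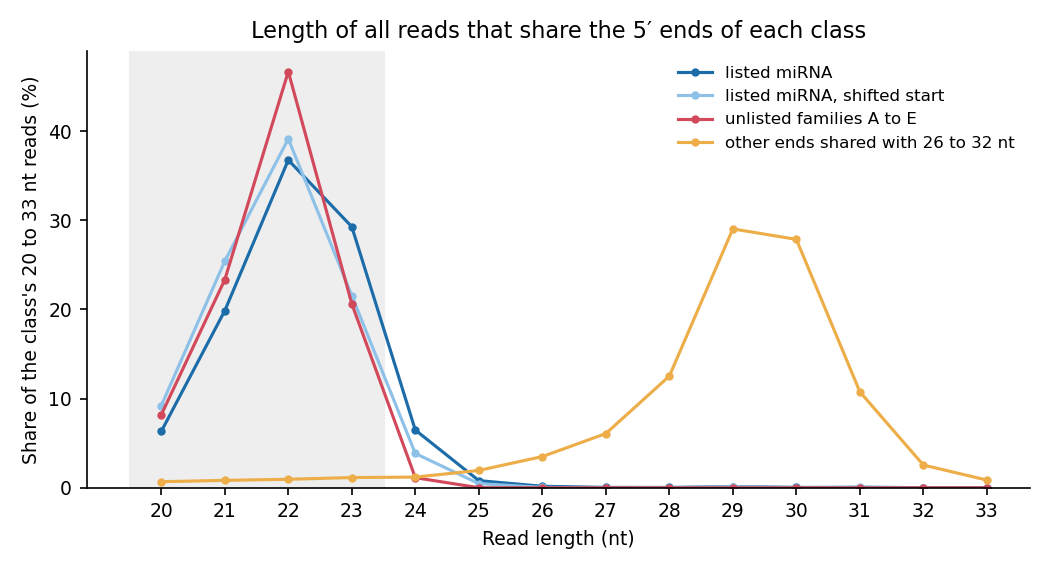
Length of all reads of 20 to 33 nt that share their first 18 nt with the 20 to 23 nt reads of a class, in percent of each class, 1 library; grey marks 20 to 23 nt. Listed miRNAs, shifted starts and unlisted families peak at 22 nt and hold 6.48%, 3.85% and 1.14% at 24 nt, while the other ends shared with 26 to 32 nt sequences peak at 29 nt with 29.0%.

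Both arms of a hairpin were seen for 10 listed miRNAs, leaving out those whose arms carry joint names. Of the 5 most abundant, miR-34c had 83295 reads from the 5′ arm and 765 from the 3′ arm, so the 5′ arm gave 99.1% (99.02% to 99.15%). The 5′ arm gave 95.8% for miR-9 (18464 and 801 reads), 95.2% for miR-202, a miRNA of the gonads (3131 and 158), and 88.1% for miR-30a (3578 and 482). In miR-126 the 3′ arm led, with 7476 reads against 686 from the 5′ arm, 91.6% (91.0% to 92.2%). In these 5 hairpins the major arm held between 88.1% and 99.1% of reads, while miR-34b, much less abundant, had 140 reads from the 5′ arm and 176 from the 3′ arm, counting listed starts alone.

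Shifted starts were rare on the whole but common in some miRNAs. They made up 3.95% of reads with a listed or shifted start, with 8920 reads that had 1 extra base and 10448 that lacked 1. The median over the 61 miRNAs was 0.531%, and 8 exceeded 10%. A set of these forms is shown with the seed each gives in capitals, because the shifted seed is not the one listed for the miRNA.
miR-101-3p, 1 extra base: gTACAGTActgtgataactga
miR-29a-3p, 1 extra base: cTAGCACCatctgaaatcggtt
miR-10b-5p, 1 base missing: aCCCTGTAgaaccgaatttgtg
miR-140-3p, 1 base missing: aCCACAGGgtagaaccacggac
miR-34c-5p, 1 extra base: tAGGCAGTgtagttagctgatt
The miR-101-3p form with an extra base had 2186 reads beside 4591 with the listed start, 32.2% of all its forms (31.1% to 33.3%). For miR-29a-3p the form with an extra base had 1275 reads beside 3562 (26.4%). For miR-140-3p the form without the first base had 1240 beside 1670 (41.8%), for miR-10a-5p 1008 beside 1667 (37.4%) and for miR-10b-5p 1633 beside 8733 (15.8%). The form of miR-34c-5p with an extra base had the most reads of any shifted form, 2303, but this was 2.68% of its total. These shares are relative to the human start used for the listing, which need not be the main start in marmoset: for miR-34b-3p the form without the first base had 783 reads and the listed start 176.

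Reads grouped by seed over all sequences of 20 to 23 nt, named or not, were led by known families. The seed GGCAGTG of miR-34 and miR-449 had 106466 reads, 9.16% of 20 to 23 nt reads (9.10% to 9.21%), and 0.026% of 24 to 33 nt reads. ACCCGTA, the seed of miR-99 and miR-100, had 51784 reads (4.45%), GAGGTAG of let-7 40230 (3.46%), AGCTTAT of miR-21-5p 34270 (2.95%) and AAAGTGC of miR-17, miR-20 and miR-93 25434 (2.19%). Listed miRNAs made up 99.5% or more of the reads of each of these seeds. Together they took 22.2% of 20 to 23 nt reads, while the 5 largest seeds of 24 to 33 nt reads took 6.75% of those. The ninth seed, GAATGTC, had 18028 reads and no listed miRNA: 17937 of its reads belonged to family C.

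Part of the abundant sequences without a listed start fell into families of near copies. Reads that agree in their first 18 nt were taken as one 5′ end, and ends of at least 100 reads numbered 522, with 823269 reads, of which 116 ends had a listed start (tRNA, rRNA and Y RNA included), 28 a shifted one and 378 neither. Ends whose leading sequences differed by at most 5 edits were joined, a limit set after the sequences had been seen, and the 5 unlisted groups with the most reads among those of 5 or more ends were taken. They comprise 75 of the 378 unlisted ends (19.8%), with 61.1% of the reads of those ends. The same joining put the 8 let-7 ends in one group with no other list in it. It also placed 5 of the 7 ends of the miR-10, miR-99, miR-100 and miR-125 family in a group with no other listed family, and 4 of the 6 of miR-34 and miR-449 in another. The largest groups held 6 of 12 ends of the miR-17 to 92 clusters and 4 of 6 of miR-30. They held 3 of 3 ends of miR-29 and 2 of 2 of miR-181.

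Family A had 24 ends and 57516 reads, 4.95% of 20 to 23 nt reads (4.91% to 4.99%), more than the let-7 family. Its ends ranged from 136 to 15408 reads with a median of 735. Its members differ in the 5′ part and seed, 15 seeds in all, and share their 3′ part: 18 of the 24 leading sequences, with 95.2% of the reads, end in CACTGA. In this family 71.8% of reads were of 22 nt and 90.9% began with U. Members that show this are the leading one above and the following.
Family A, second form: tGCGTCTGacatgcgacactga
Family A, form with another seed: tGCAAAGAacatgagtcactga
The leading end had 15408 reads, and each of these had 7642. The leading sequence itself had 11743 reads, the eighth most abundant of all sequences of 20 to 23 nt.

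Family B had 19 ends and 34559 reads (2.97%), from 103 to 7526 reads per end and with 17 seeds. It differed from the others in its bases: 71.0% of its reads began with A, and 76.2% ended in U. Its leading sequence had 6247 reads, and a form that differs from it in the first base had 5499.
Family B, second form: aACTCGCAgccctctagagcgt
For 14 of its 19 ends the nearest listed start, at 4 edits or fewer, was one of the primate-specific C19MC cluster, which in human is expressed in placenta. This rests on the joining limit: within 4 edits the family held 4 ends and 17421 reads, and 1 of the 4 was as near to such a start. Of the 16 listed starts of that cluster itself, 15 had no reads and miR-1323 had 2481.

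Families C, D and E lay close to listed starts of miRNAs from the X chromosome, the miR-506 to miR-514 group, which changes quickly among primates and is known from the testis. Of the 21 listed human starts of the X-linked clusters, 19 had no read, miR-513b-5p had 3251 and miR-514b-3p 32. Starts shifted by 1 or 2 bases gave miR-514b-3p 1202 further reads, 1169 of them with 2 extra bases. At the same time 8 of the 16 ends of family C, 9 of 9 of family D and 7 of 7 of family E were nearest to one of these starts, at 4 edits or fewer, and so were 2 of the 24 ends of family A. Over the 5 families 57.3% of the ends lay within 4 edits of a listed miRNA, against 13.5% of the 303 other unlisted ends. The families were unequal in this: 3 of 24 ends of family A, 14 of 19 of B, 10 of 16 of C and each end of D and E. Near copies and shifted starts of one sequence count as separate ends here, so the ends are not independent. Listed and shifted ends were joined together with the unlisted ones. The group of D took in 1 listed end and that of E 1 shifted end, so their nearness to listed starts is partly built in. Since nearness is measured to human starts and no marmoset genome was used, the genes of these RNAs were not located.

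Family C had 16 ends and 30715 reads (2.64%), 76.3% of them with U first and 44.4% of 23 nt. Its leading end had 11512 reads. Family D had 9 unlisted ends and 27462 reads (2.36%), each beginning with U, and 53.3% were of 23 nt. miR-513b-5p joined it as the tenth end. In family D 6.11% of reads with these ends were of 24 to 33 nt, against 0.418% in family B, 0.128% in family A, 0.026% in family C and 0.022% in family E. Family E had 7 unlisted ends and 22427 reads (1.93%), a further end in its group being a shifted start of a listed miRNA, and 4 of the ends are one sequence begun at successive bases.
Family E, 1 base earlier: gATTGAAAcctctgagagtaga
Family E, 2 bases earlier: tGATTGAAacctctgagagtaga
The start shown for the family above had 9549 reads, that 1 base earlier 3304 that 2 bases earlier 5750 and one that begins 1 base later 124, so its reads were split over 4 seeds.

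**Figure D5:**
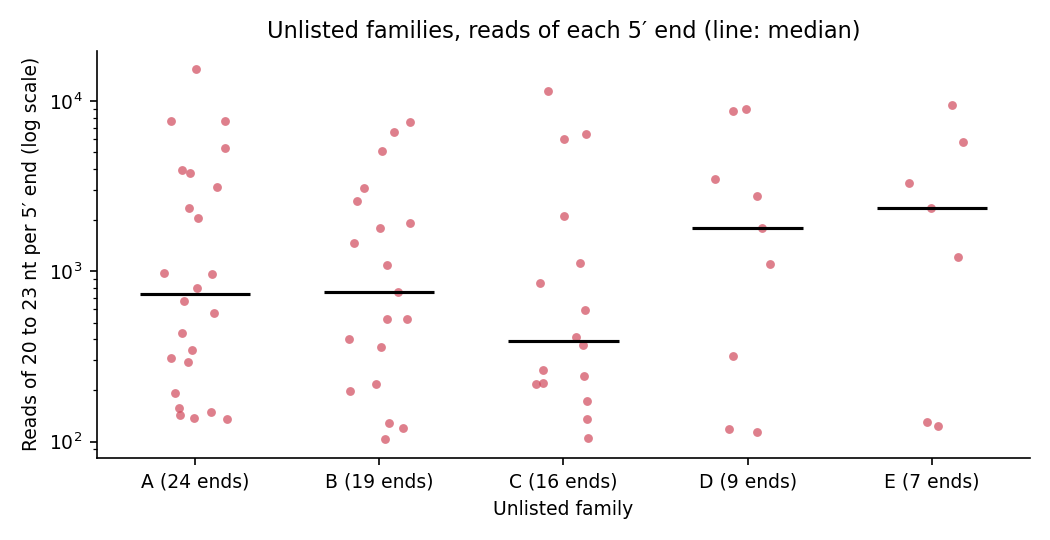
Reads of 20 to 23 nt of each 5′ end in the unlisted families A to E, on a log axis, with the median of each family as a line, 1 library. Family A spans 136 to 15408 reads over 24 ends, and the medians run from 392 in family C to 2358 in family E.

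Sequences of families C and D could pair with each other with 2 free bases at both 3′ ends. Each pair of the 522 leading sequences was laid antiparallel with a fixed number of free bases at both 3′ ends, and unpaired bases and gaps were counted, taking G with U as paired. With 2 free bases, 8 of 135981 pairs had nothing unpaired, and each of the 8 was of a family C with a family D sequence. These 8 pairs combine near copies of the same C and D sequences, so they are not independent. With 0, 1, 3 or 4 free bases no pair was without an unpaired base. With at most 1 unpaired position there were 19 pairs at 2 free bases, all between C and D, against 0 at 0 and 1 free bases, 11 at 3 and 2 at 4. The leading sequences of the families, shown above, are such a pair, with 11512 reads for the end of family C and 8970 for that of family D. Several C sequences pair equally well with the same D sequence, so which of them, if any, come from one hairpin cannot be told apart by sequence. Within 2 unpaired positions, family C made 37 pairs with D and 6 with listed miRNAs, and families A and E made none. Listed miRNAs made 3 pairs with each other, the arms of miR-9, miR-126 and miR-202, each with 2 positions unpaired. The arms of miR-34c and those of miR-30a made none, so known arms paired less fully here than C with D. Pairs at this limit took in 13 of the 16 ends of C but 4 of the 9 of D, and the D end with 8782 reads was in none. At that limit 2 free bases stood out less: there were 58 pairs in all at 2 free bases and 50 at 3, and 29 pairs of C with D at 3.

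Many of the remaining reads share a start with piRNA-length sequences. Of reads without a listed miRNA start, 52.7% (52.6% to 52.8%) had first 20 nt that begin a 26 to 32 nt sequence. Listed miRNA reads reached 58.4% by the same measure, so a shared start alone does not set the others apart. Leaving out the families, shifted starts and listed tRNA, rRNA and Y RNA from the reads without a listed miRNA start gave the 310217 reads above. The longer sequences with the same starts had 7872901 reads, 25.4 for each short read, against 0.00518 for listed miRNA reads. Counted from the longer reads instead, 12544 (84.0%) of the 14929 starts with 100 or more reads of 26 to 32 nt also had reads of 20 to 23 nt. Over these starts, which were chosen for their longer reads, the short reads made up a median of 1.53% of a start's reads, with quartiles of 0.548% and 3.27%, and exceeded 10% at 500 starts. In the MARWI-IP library, which is deeper, 94.7% of the short reads of this class shared their first 20 nt with a 26 to 32 nt sequence. The class was chosen for such a start in the total library, so a high share was built in. The share was 17.6% for other reads without such a start, 62.9% for listed miRNA reads and 5.19% for the unlisted families.

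The short reads of these starts ended more often before an A than elsewhere. For reads that begin the commonest 26 to 32 nt sequence of their start, that sequence gave the base that follows the read's 3′ end. After reads of 20 nt this base was A in 40.0%, against 29.1% A at the same position over short reads of all 4 lengths. The values were 46.4% against 28.2% after 21 nt, 42.4% against 30.3% after 22 nt, and 48.0% against 33.8% after 23 nt. C followed in 10.9% to 12.9% of reads, against 16.8% to 20.1% at the same positions. The excess of A and the lack of C were thus seen at each of the 4 lengths.

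The leading sequences of this class, named by length and reads, were of unequal kinds.
21 nt, 3072 reads: aACGTGGAattctgggcacgc
21 nt, 1005 reads: tTAGATTGtaaaaatgtgtgc
23 nt, 1437 reads: tATCATAActgctgaatgataga
The first had 55774 reads of 26 to 32 nt with the same start, 18.2 for each read of the sequence shown. The second had 125370, 124.7 for each, but its start had 706 further reads in a form of 22 nt and 643 in one of 23 nt. The third had 5115, 3.56 for each. In other leading sequences of the class the single short sequence was nearly as common as the longer ones or commoner. One of 21 nt had 950 reads beside 1052, one of 23 nt 774 beside 146, and one of 22 nt 852 beside 1. The start of that 21 nt sequence also had forms of 20 nt with 762 reads and of 23 nt with 799. Abundant sequences without a longer counterpart were led by one of 22 nt with 2554 reads, whose identity is not known here.
22 nt, 2554 reads: aAGTTTCTctgaatgtgtagag
Among reads with no listed, family or longer counterpart, 52.1% came from sequences read once.

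The 11 listed starts of tRNA, rRNA and Y RNA had few reads at this length. Other parts of these RNAs and other kinds of RNA were not searched. The 28S rRNA start had 3115 reads of 20 to 23 nt and 18975 of 24 to 33 nt. The listed tRNA-Val start had 1441 and 30642, and the tRNA-Gly-GCC start 433 and 487589. The other 8 starts had between 6 and 220 reads of 20 to 23 nt.

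Near copies of abundant miRNAs that differ by 1 base, as sequencing errors would give, were few once other named miRNAs were set aside. The commonest sequences of the 20 leading miRNAs had 247778 reads. For 18 of them no sequence with 1 substitution was counted, leaving out neighbours with another listed name. The exceptions were A19G in let-7a-5p, with 1869 reads, and G22C in miR-103a-3p, with 98 reads, counting positions from the 5′ end. These are the bases that separate let-7c-5p from let-7a-5p and miR-107 from miR-103a-3p. Neighbours left out by name include let-7f-5p, whose leading sequence of 7334 reads differs from that of let-7a-5p by 1 base. Among the 100 most abundant sequences of 20 to 23 nt, 53 had no neighbour at 1 substitution and 47 had at least 1. How the table was filtered is not given in the sources used here. Bases added or edited after transcription were not tested.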

How the data were processed

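Testis RNA was extracted with the miRNeasy kit, size-selected on a gel and made into a library with NEBNext small RNA reagents, per the labels' protocols. The deposited table gives whole-number read counts per distinct sequence, not normalized. Bowtie, TopHat and Cufflinks are named, without a role, in the submitters' processing notes. Their versions and the genome build were not found in what was used here.

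All 201771 sequences of 20 to 23 nt were kept; the library has 14138166 reads. Reads were named by their first 18 nt from 210 starts of human RNAs (199 of them miRNAs) written from general knowledge, since no miRNA table was given. The RNA-seq table was not used. Named items are the 20 most abundant miRNAs, the 3 leading sequences of each length, the 10 leading unlisted sequences, list members with 100 or more reads, and the 5 largest seeds and hairpins; others, the families, pairings and following base were chosen after values were seen. Members, lists and limits were chosen with earlier results of these data known. Ends were grouped with edlib 1.3.9.post1 and intervals taken with scipy 1.17.1 (Python 3.11.15). The functions were tested on simulated sequences. Alternatives are given at the end.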

Additional observations from a re-analysis of the deposited data

How the results depend on the processing

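Counting each distinct sequence once put 20 to 23 nt at 7.56% of the library and 22 nt at 25.8%, with 23 nt then the commonest length. It put U at 72.7% of first and 30.4% of last bases and listed miRNAs at 0.284%. Starts shared with 26 to 32 nt were 62.6% of sequences without a listed miRNA start. Without sequences read once these shares of reads were 8.25%, 38.2%, 62.4%, 33.3%, 51.5% and 45.0%, and the 10 most abundant sequences held 18.3%. Without the 10 most abundant sequences, U began 65.5% and ended 32.9% of reads, listed miRNAs were 35.2% and shared starts 53.7%. Over 21 to 23 nt, U began 63.2% and ended 32.7% of reads, the 10 most abundant sequences held 17.9%, listed miRNAs 46.9% and shared starts 50.8%. With starts shifted by up to 2 nt counted as miRNA, listed miRNAs were 46.3%, miR-34c-5p 15.9% of them and shared starts 53.9%. With the unlisted families counted as miRNA too, a setting added after seeing the data, these were 61.1% and 69.9%. With 10 or more reads required of the longer sequence, shared starts were 36.4%, and 31.9% by that measure for listed miRNA reads. Matching by the first 16 nt moved no value beyond its interval, and matching whole mature sequences was not run, since no such table was used.

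Joining ends within 4 edits left family A at 57516 reads and gave 17421 for B, 21658 for C, 25673 for D and 18857 for E. At 6 edits families C and E became one group of 58722 reads. No paired analysis was possible because there is 1 library. Depth limits rare sequences: 79.2% of the sequences were read once.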
